A study of Mus musculus with 4 samples.

Results

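The genes described here encode enzymes that write or erase marks on histones and DNA, proteins that read those marks, and a few obligate partners of the writers. They were taken by symbol, as every gene of the Ehmt, Suv39h, Setd, Kmt2, Kmt5, Kdm, Prdm, Smyd, Nsd, Ezh, Dnmt, Tet, Uhrf, Cbx, Hdac, Sirt, Kat and Brd families and *Eed*, *Suz12*, *Trim28*, *Atf7ip* and *Wiz* to which the array annotation assigns a probe set of that gene alone. The rule uses no measured value. The rule found 114 of the 18193 genes on the array, with 287 probe sets of 34945 that name 1 gene. 1 of the 114, *Prdm16os*, is an antisense RNA that only shares the symbol's beginning. A further 8 probe sets that match but list several genes, 4 of them shared by *Cbx3* and a *Cbx3* pseudogene, were not used, and genes without an entry in the annotation used here were not analysed.

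RNA came from non-tumorous liver of 30-week-old male mice on a C57BL/6 background, with 1 GeneChip Mouse Genome 430 2.0 array per mouse. The 2 WT mice carried Alb-Cre and G9a+/+, and the 2 G9aΔHep mice, labelled G9aKO, carried Alb-Cre and the floxed G9a gene on both alleles (G9aflox/flox). All 4 mice had been given diethylnitrosamine (DEN, 25 mg/kg) at 15 days of age, followed by 22 weekly injections of the hepatotoxin carbon tetrachloride (CCl4, 0.5 ml/kg). Both genotypes therefore share Cre, the carcinogen and the repeated injury, and no untreated liver is among the arrays. Cre under the albumin promoter acts in hepatocytes, so other liver cells keep G9a. The question addressed here is how the rest of the chromatin machinery was expressed when hepatocytes lacked G9a.

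Chromatin marks are set by opposing enzymes. G9a, encoded by *Ehmt2*, and its partner GLP, encoded by *Ehmt1*, place mono- and dimethylation on lysine 9 of histone H3, a mark of silent genes. The Suv39h enzymes and SETDB1 place trimethylation, and HP1 proteins (*Cbx1*, *Cbx3*, *Cbx5*) bind methylated lysine 9. The KDM3 demethylases remove its mono- and dimethylation, and the KDM4 demethylases act on its trimethylation. Polycomb complexes write and read methylation of lysine 27, the MLL enzymes methylate lysine 4 at active promoters and enhancers, and acetyltransferases and deacetylases set histone acetylation, which bromodomain proteins read.

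The promoters of 4 genes are shown because the results return to both pairs: G9a and GLP, which act together, and the SMYD methyltransferases *Smyd2* and *Smyd1*, whose windows differ widely in CG content. Each line gives the 250 bases before the RefSeq start of the gene in GRCm38.p6, read 5′ to 3′ on the gene's strand, with every CG dinucleotide in capitals.
*Ehmt2*, chr17:34898224-34898473, plus strand: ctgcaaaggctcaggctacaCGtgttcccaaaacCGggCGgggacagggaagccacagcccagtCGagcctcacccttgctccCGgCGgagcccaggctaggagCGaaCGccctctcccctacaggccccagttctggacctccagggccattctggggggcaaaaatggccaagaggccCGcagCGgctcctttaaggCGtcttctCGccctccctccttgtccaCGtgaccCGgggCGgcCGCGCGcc
*Ehmt1*, chr2:24919610-24919859, minus strand: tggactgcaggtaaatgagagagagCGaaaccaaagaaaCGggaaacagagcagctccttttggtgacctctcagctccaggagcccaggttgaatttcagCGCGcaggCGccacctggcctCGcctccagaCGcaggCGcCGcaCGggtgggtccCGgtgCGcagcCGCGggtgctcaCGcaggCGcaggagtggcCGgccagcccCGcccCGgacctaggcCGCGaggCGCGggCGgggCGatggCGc
*Smyd2*, chr1:189922292-189922541, minus strand: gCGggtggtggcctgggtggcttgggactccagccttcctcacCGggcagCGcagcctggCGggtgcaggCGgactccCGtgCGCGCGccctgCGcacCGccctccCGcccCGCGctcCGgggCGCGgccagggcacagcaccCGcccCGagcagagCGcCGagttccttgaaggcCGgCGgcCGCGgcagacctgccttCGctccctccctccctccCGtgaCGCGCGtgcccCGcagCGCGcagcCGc
*Smyd1*, chr6:71262282-71262531, minus strand: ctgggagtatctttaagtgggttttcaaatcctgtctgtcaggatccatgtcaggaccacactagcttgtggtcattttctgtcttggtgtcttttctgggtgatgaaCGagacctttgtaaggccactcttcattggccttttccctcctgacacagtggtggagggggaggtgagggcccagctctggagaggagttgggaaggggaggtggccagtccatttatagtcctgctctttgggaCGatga
The window held 18 CG dinucleotides in *Ehmt2*, 26 in *Ehmt1* and 34 in *Smyd2*, but 2 in *Smyd1*, which encodes a methyltransferase of striated muscle. CG reads the same on both strands, and 96.8% of the 14452 array genes with a promoter entry held at least 1. A window was called CpG-rich when its observed over expected CG ratio was above 0.6 and its GC content above 50%. By that measure 68 of the 93 chromatin genes with an entry (73.1%) were CpG-rich, beside 49.2% of all array genes and 61.2% of all genes tested below. The share was 73.7% among the chromatin genes tested and 70.6% among those that were not, whereas it was 32.2% among all array genes that were not tested.

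Most of this machinery was detected in the liver. A gene was tested when a probe set was called Present, the detection call of the array software, on at least 2 of the 4 arrays. This held for 93 of the 114 chromatin genes (81.6%) and for 10350 of all 18193 genes (56.9%). At the probe set tested, 80 of the 93 were Present on all 4 arrays. Of the 21 others, 17 were Absent or Marginal on every array. They included the H3K9 writer *Suv39h2*, the 5-methylcytosine oxidases *Tet1* and *Tet3*, *Uhrf1*, which guides maintenance methylation of DNA, the deacetylases *Sirt4* and *Sirt6*, and the germ-cell genes *Dnmt3l*, *Prdm9* and *Prdm14*. *Kdm4b*, *Kdm4d*, *Atf7ip2*, *Prdm6*, *Prdm8*, *Prdm11*, *Prdm16os* and the *Cbx3* probe set that names *Cbx3* alone were also in this class. *Cbx8*, *Hdac7*, *Prdm15* and *Smyd3* were Present on 1 array each. An Absent call means that the signal was not separated from background on the array, and the 95% quantile of Absent signals was 170.5 to 181.1 on the 4 arrays.

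No chromatin gene passed the test between genotypes. With limma on log2 signals and Benjamini-Hochberg adjustment over all 10350 genes, 0 of the 93 were higher and 0 were lower in G9aΔHep liver at an adjusted p under 0.05, against a background of 0.319% of genes higher and 0.0676% lower. At an unadjusted limma p under 0.05, 7 were higher (7.53%) and 3 were lower (3.23%), beside 5.92% and 4.1% of all genes. The 7 were *Smyd4*, *Smyd1*, *Cbx6*, *Kmt2d*, *Kat6a*, *Atf7ip* and *Kdm5d*, and the 3 were *Ehmt2*, *Sirt5* and *Smyd2*. The split was 6 and 4 with the arrays centred on their medians and 4 and 4 after quantile normalization. The p-values measure only the spread between these mice, and for any single gene the smallest two-sided p of an exact permutation test in this design is 0.33.

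Most differences of the chromatin genes were small. The median absolute log2 difference between genotype means was 0.17 for the 93 and 0.19 for all genes, whereas the median absolute difference between the 2 WT arrays was 0.22 for the 93 and that between the 2 G9aΔHep arrays 0.19. Only *Ehmt2* and *Sirt5* differed by more than 1 on the log2 scale, 2.15% of the 93 beside 3.63% of all genes. For 70 of the 93 (75.3%, beside 71.9% of all genes), the 95% interval of the difference lay within 2-fold in either direction. The median difference, G9aΔHep minus WT, was 0.07 for the 93 and 0.02 for all genes tested. Both G9aΔHep arrays were above both WT arrays in 28 of the 93 and below both in 14, 30.1% and 15.1% beside 22.3% and 19.3% of all genes. With the arrays centred on their medians these counts were 22 (23.7%) and 23 (24.7%), beside 16.8% and 26% of all genes.

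**Figure D1:**
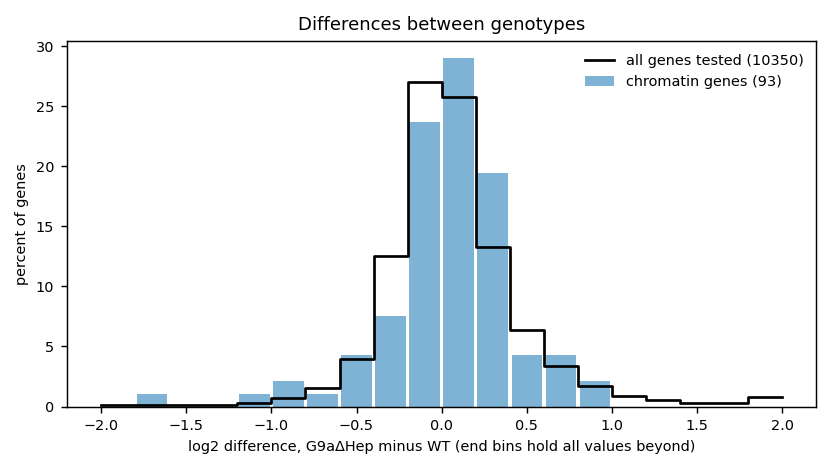
Percent of genes (vertical axis) by log2 difference between genotypes (horizontal axis) for the 93 chromatin genes (bars) and all 10350 genes tested (black line). Both distributions centre near 0, and the bar at the far left is *Ehmt2* at -1.73.

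**Figure D2:**
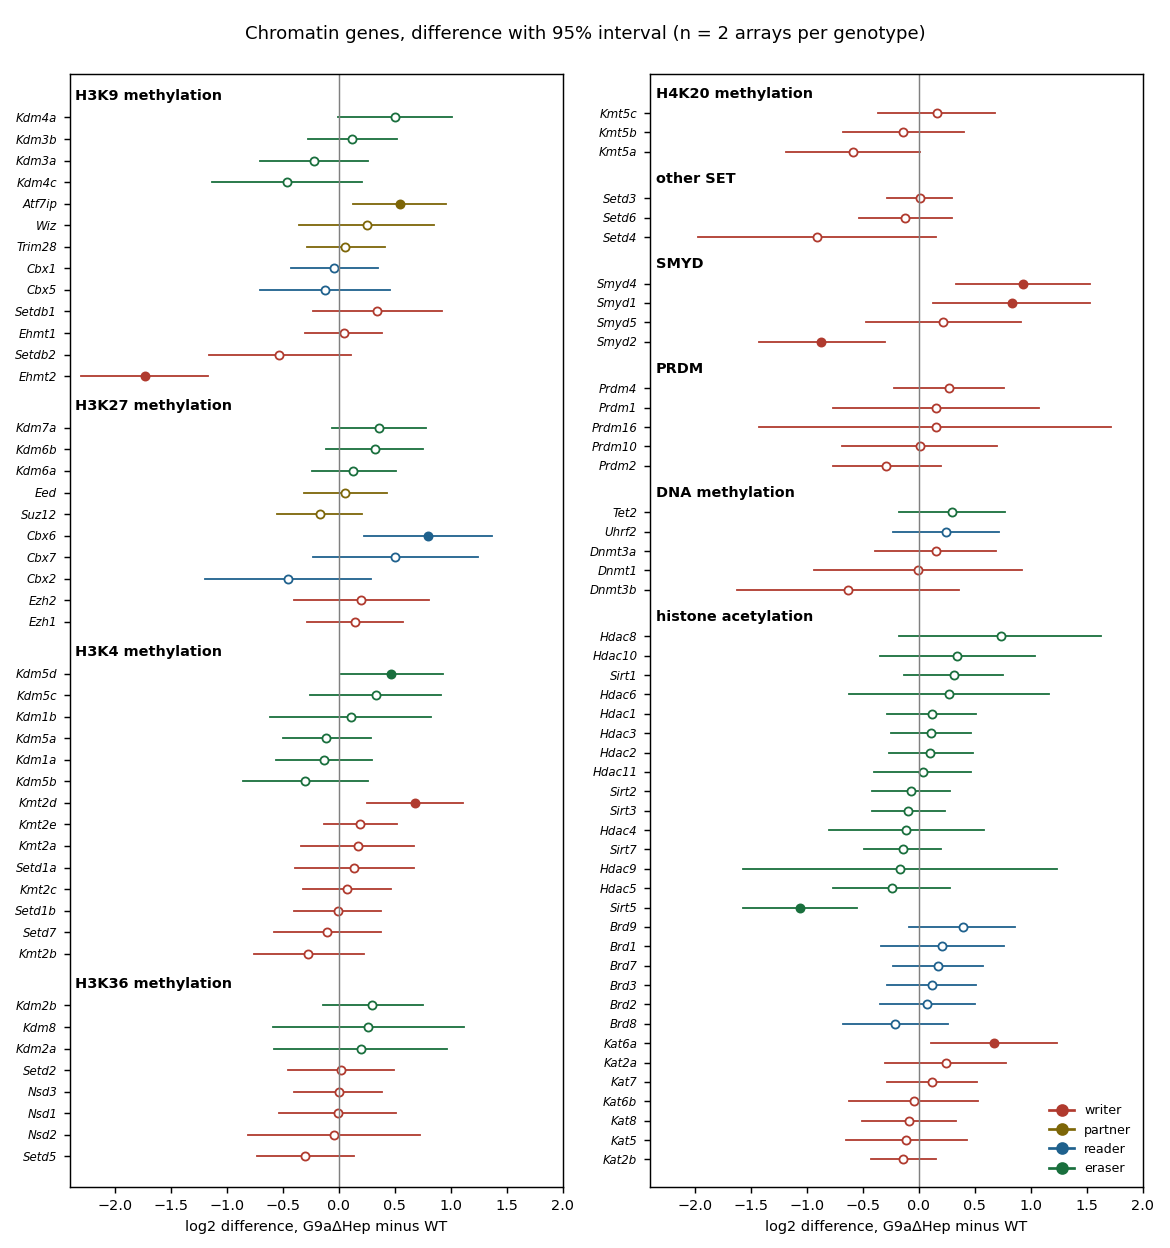
Log2 difference, G9aΔHep minus WT (horizontal axis), of each of the 93 chromatin genes, by mark; lines are 95% intervals from limma with 2 arrays per genotype, colours give the role and filled points have an unadjusted p under 0.05. The filled points are the 10 genes from *Ehmt2* at -1.73 to *Smyd4* at 0.93, and the remaining intervals include 0.

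Among the writers of H3K9 methylation, the deleted gene alone had an unadjusted p under 0.05. *Ehmt2* had signals of 640 and 492 in WT and of 174 and 164 in G9aΔHep liver, where both arrays were called Absent, which makes it at least 3.33-fold higher in WT (log2 difference -1.73, SE 0.23, adjusted p = 0.063 from limma). The groups did not overlap. In bulk tissue, fewer cells that express a gene and less RNA per cell cannot be told apart. The 2 Absent signals lay near the upper end of Absent signals, and the other probe set of *Ehmt2* was called Absent in both genotypes, so neither shows how much transcript remained. Whether the detected probe set lies in the deleted exons was not determined here, so how far its drop checks the labels is not known.

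*Ehmt1*, whose product pairs with G9a in the methyltransferase complex, had nearly level signals of 1164 and 1116 in WT and 1140 and 1217 in G9aΔHep liver. The groups overlapped, and the 95% interval of the log2 difference ran from -0.30 to 0.39. Its difference of 0.05 became -0.02 with median centring, which shifts all genes alike. *Wiz*, a zinc finger partner of the same complex, was 203 and 237 against 237 and 288 (log2 difference 0.25, interval -0.35 to 0.85).

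The trimethylation branch gave no common direction. *Setdb1*, an H3K9 writer recruited by KAP1, had signals of 317 and 458 in WT and 484 and 483 in G9aΔHep liver, so the G9aΔHep arrays lay above a wide WT pair (log2 difference 0.34, SE 0.23, adjusted p = 0.68 from limma). *Atf7ip*, which stabilises SETDB1 in the nucleus, was 512 and 478 against 684 and 764 (0.55, SE 0.17, adjusted p = 0.382). A second *Atf7ip* probe set, Present on 2 arrays, gave -0.11 with overlapping groups. *Trim28*, which encodes KAP1, was 2178 and 2234 against 2511 and 2113 and did not separate the genotypes. *Setdb2*, a further H3K9 methyltransferase, was 541 and 799 against 525 and 396, lower on both G9aΔHep arrays (-0.53, SE 0.26, adjusted p = 0.562).

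The readers and erasers of this mark straddled 0. The HP1 genes *Cbx1* (-0.04) and *Cbx5* (-0.12) overlapped between genotypes. Of the demethylases, *Kdm4a*, which acts on trimethylated lysine 9 and lysine 36, was 374 and 309 in WT against 521 and 443 in G9aΔHep liver, without overlap (0.50, SE 0.21, unadjusted p = 0.055, adjusted p = 0.509 from limma). *Kdm4c*, a demethylase of the same class, had the opposite sign, with 228 and 314 against 179 and 212 (-0.46, SE 0.27, adjusted p = 0.634). *Kdm3a* (-0.22) and *Kdm3b* (0.12), which remove the mono- and dimethylation that G9a writes, overlapped. In all, 13 of 18 genes of H3K9 methylation were tested, 7 had positive differences, and the median was 0.05.

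**Figure D3:**
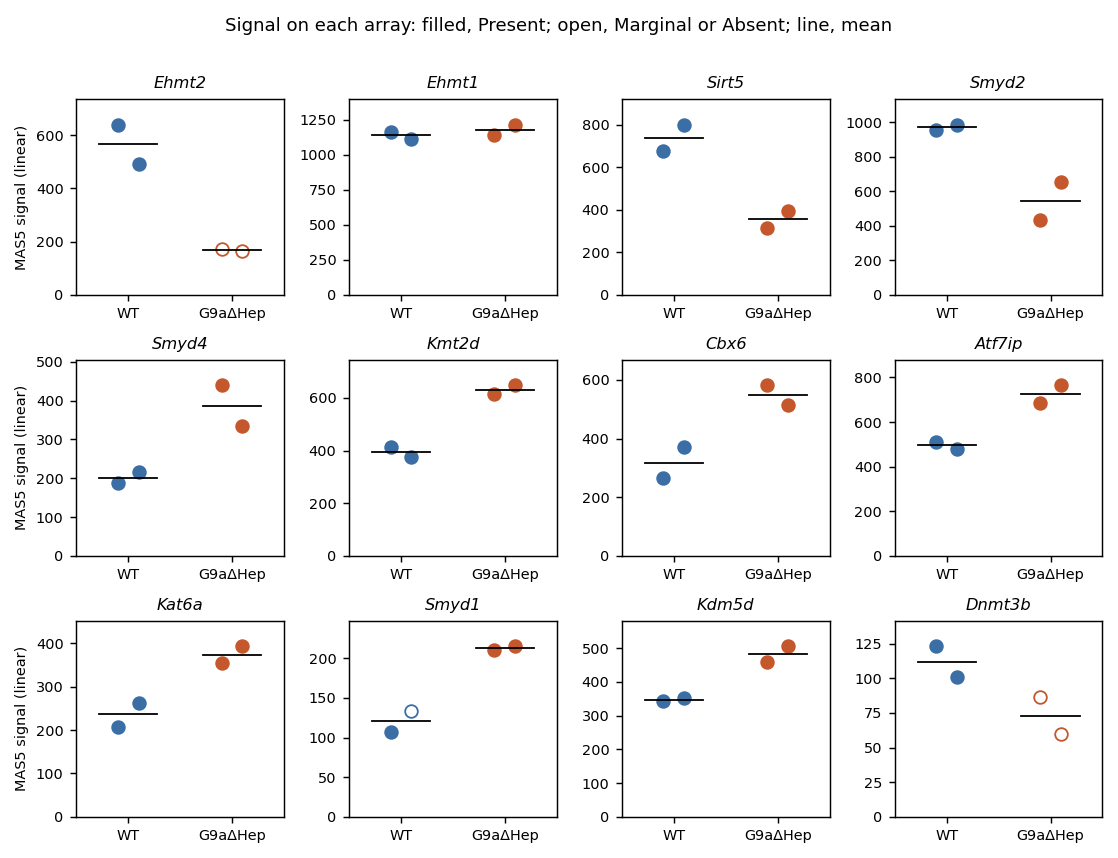
MAS5 signal on a linear scale from 0 (vertical axis) on each of the 4 arrays by genotype. The panels show the 10 chromatin genes with an unadjusted limma p under 0.05, with *Ehmt1* and *Dnmt3b*. Filled points were called Present, open points Marginal or Absent, and lines are means of 2 arrays. Groups are separate in every panel except *Ehmt1*, but most panels were chosen by their values, so this does not describe the chromatin genes at large. The G9aΔHep points of *Ehmt2* and *Dnmt3b* are open.

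Most genes of H3K27 methylation and Polycomb had positive differences, and all but a few were small. Of 10 tested, 8 had positive differences and 7 had both G9aΔHep arrays above both WT arrays, with a median of 0.17. Over all genes tested, 53.4% were positive and 22.3% did not overlap on the higher side. After median centring 7 of the 10 were positive and 5 did not overlap on the higher side, beside 44.1% and 16.8% of all genes. The writers *Ezh1* (536 and 495 in WT, 547 and 594 in G9aΔHep liver) and *Ezh2* (232 and 187, 244 and 236) differed by 0.15 and 0.20, and their core partners *Eed* (0.06) and *Suz12* (-0.17) overlapped. All 3 demethylases assigned to this mark were higher without overlap at the brightest probe set, *Kdm6a* by 0.13, *Kdm6b* by 0.32 and *Kdm7a* by 0.36, with SEs of 0.15 to 0.18. Other detected probe sets gave 0.15 and -0.53 for *Kdm6a*, 0.24 for *Kdm6b*, and 0.22, 0.22 and -0.73 for *Kdm7a*. With detected probe sets averaged, the differences were -0.08, 0.28 and 0.02, so *Kdm6a* and *Kdm7a* have no direction that their probe sets share.

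The Polycomb readers went different ways. *Cbx6* had 266 and 370 in WT and 581 and 513 in G9aΔHep liver (0.80, SE 0.23, adjusted p = 0.341 from limma). *Cbx7* was 304 and 182 against 352 and 316, with 1 WT array Absent (0.50, SE 0.30). *Cbx2* was 215 and 208 against 127 and 188 (-0.45, SE 0.30). A second detected probe set had the opposite sign for each of the first pair, with -0.43 for *Cbx6* (253 and 191 against 162 and 165) and -0.49 for *Cbx7*, so neither gene has a direction that its probe sets share.

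In H3K4 methylation, all 14 genes were detected and *Kmt2d* led. *Kmt2d*, the MLL4 enzyme that monomethylates enhancers, had 415 and 374 in WT and 615 and 647 in G9aΔHep liver, 1.60-fold higher (log2 difference 0.68, SE 0.18, adjusted p = 0.29 from limma). The pairs were tight and well apart. The unadjusted p of *Kmt2d* was 0.00853 and stayed under 0.05 when any array was left out, with differences of 0.60 to 0.75. Its relatives did not follow by the same amount. *Kmt2c*, the closest paralogue, was 967 and 1176 against 1101 and 1141 (0.07, interval -0.32 to 0.47), *Kmt2a* differed by 0.17, *Kmt2e* by 0.19 and *Kmt2b* by -0.27. *Setd1a* (0.14), *Setd1b* (-0.01) and the monomethyltransferase *Setd7* (-0.10) overlapped.

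Of the 6 H3K4 demethylases, *Kdm5d*, which lies on the Y chromosome, was 343 and 351 against 459 and 505 (0.47, SE 0.19, unadjusted p = 0.0443, adjusted p = 0.491 from limma). Without any 1 array the difference of *Kdm5d* was 0.40 to 0.54, with an unadjusted p above 0.05. The other Y-linked genes tested did not share this difference. *Uty* was level, with 566 and 710 in WT and 575 and 707 in G9aΔHep liver (0.01, SE 0.20). *Eif2s3y* had the opposite sign, with 2641 and 2848 against 1411 and 2236 (-0.63, SE 0.23). *Kdm5c*, the X-linked counterpart, overlapped, as did *Kdm1a*, *Kdm1b* and *Kdm5a*, and *Kdm5b* was 405 and 330 against 325 and 271 (-0.30, SE 0.23).

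At the brightest probe set, most H3K36 and H4K20 enzymes overlapped between genotypes, and *Kmt5a* was the widest apart. The H3K36 writers *Setd2* (0.02), *Nsd1* (-0.01), *Nsd2* (-0.04) and *Nsd3* (-0.00) all overlapped, and their intervals lay within 2-fold. *Setd5*, a SET-domain protein grouped with them, was 565 and 554 against 485 and 429 (-0.30, SE 0.18). The JmjC genes *Kdm2a*, *Kdm2b* and *Kdm8* were at 0.20, 0.30 and 0.26, of which *Kdm2b* alone did not overlap. *Kmt5a*, the monomethyltransferase of H4K20 that acts in the cell cycle, had 919 and 660 in WT and 602 and 443 in G9aΔHep liver (-0.59, SE 0.25, unadjusted p = 0.0525, adjusted p = 0.501 from limma). The groups did not overlap, and the unadjusted limma p was 0.031 with median centring and 0.0356 after quantile normalization. Without the first WT array or the second G9aΔHep array the difference was -0.35 and -0.37. A second detected *Kmt5a* probe set was 495 and 382 against 324 and 413, with overlapping groups (-0.25). With detected probe sets averaged, *Kmt5a* was at -0.42 (unadjusted p = 0.0792 from limma). The H4K20 enzymes that extend the mark of *Kmt5a*, *Kmt5b* (-0.14) and *Kmt5c* (0.16), overlapped. Other detected probe sets were higher without overlap for *Nsd1* (0.61), *Nsd2* (0.64), *Nsd3* (1.55) and *Kdm2a* (0.81), and lower for *Kmt5b* (-0.69). Of these, the signals for *Nsd1*, *Nsd3* and *Kmt5b* lie within the range that Absent probe sets reach.

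The SET-domain genes with mainly non-histone or uncertain substrates held 1 wide difference. *Setd4* was 229 and 193 against 166 and 75.7 (-0.91, SE 0.43, adjusted p = 0.549 from limma), and its second detected probe set was 118 and 89.1 on WT arrays called Present and 44.8 and 69.4 on G9aΔHep arrays called Absent. The G9aΔHep signals of both sets lie within the range of Absent probe sets. *Setd3*, the actin histidine methyltransferase, was 2494 on both WT arrays and 2483 and 2532 on the G9aΔHep arrays, an interval of -0.28 to 0.30 that is among the narrowest of the 93. *Setd6* was at -0.12 with overlapping groups.

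The SMYD family, SET-domain methyltransferases with an inserted MYND zinc finger, held 3 of the 10 genes with an unadjusted p under 0.05 among its 4 tested genes, in both directions, beside 5.92% of all genes higher and 4.1% lower. 1 of the 3, *Smyd1*, rests on a single probe set that another does not match. *Smyd2*, which methylates histones and p53, had 954 and 987 in WT and 432 and 653 in G9aΔHep liver (-0.87, SE 0.23, adjusted p = 0.3 from limma). *Smyd4* had 187 and 216 in WT and 439 and 334 in G9aΔHep liver, 1.91-fold higher (0.93, SE 0.25, adjusted p = 0.299). Neither pair of groups overlapped. Leaving out the first G9aΔHep array moved *Smyd2* to -0.57 and leaving out the second to -1.17, so its size turns on which mouse is used.

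*Smyd1*, a gene of heart and skeletal muscle with the CpG-poor promoter shown above, had 107 and 134 in WT and 210 and 215 in G9aΔHep liver (0.83, SE 0.29, adjusted p = 0.43 from limma). Its WT signals lie within the range that Absent probe sets reach. The probe set behind this value carries the suffix that the array maker gives to sets able to hybridise to other sequences. The only *Smyd1* probe set that was Present on all 4 arrays read 176 and 127 against 131 and 163 (-0.03), and the 4 others were Absent throughout. *Smyd5* overlapped (0.22). Of the PRDM genes, zinc finger proteins with a SET-like domain, 5 of 12 symbols were tested, and 0 had an unadjusted p under 0.05. *Prdm2* (518 and 445 against 367 and 422) was lower and *Prdm4* (306 and 309 against 390 and 352) higher without overlap, beside 19.3% and 22.3% of all genes.

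Of the 5 DNA methylation genes tested, 0 had an unadjusted limma p under 0.05 at the brightest probe set. *Tet2* and *Uhrf2* were higher and *Dnmt3b* lower without overlap, beside 22.3% and 19.3% of all genes. After median centring 1 was higher and 1 lower without overlap, beside 16.8% and 26% of all genes. The probe sets of *Dnmt1*, *Dnmt3a* and *Tet2* gave differences of unlike size. *Dnmt1*, the maintenance methyltransferase, was 516 and 261 in WT and 446 and 298 in G9aΔHep liver at its brightest probe set. There, mice of 1 genotype differed more than the genotypes did (-0.01, interval -0.94 to 0.92). Another *Dnmt1* probe set, Present on 3 arrays, was 200 and 153 against 331 and 235, without overlap (0.67, unadjusted p = 0.0575 from limma). *Dnmt3a*, a methyltransferase of unmethylated DNA, was 346 and 470 against 457 and 439 at its brightest probe set (0.15, SE 0.22). Other *Dnmt3a* probe sets gave 0.84 (121 and 161 against 275 and 226, unadjusted p = 0.0243 from limma), 0.72 (unadjusted p = 0.0296) and 0.13. *Dnmt3b*, its close relative, was 123 and 101 on WT arrays called Present and 86.2 and 59.9 on G9aΔHep arrays called Absent. The ratio of these observed signals, WT over G9aΔHep, gave a lower bound of 1.53-fold. The interval of the log2 difference ran from -1.62 to 0.36 and included no difference (adjusted p = 0.656 from limma). All of these *Dnmt3b* signals are within the range that Absent probe sets reach. *Tet2*, the 1 oxidase of 5-methylcytosine that was detected, was 399 and 497 against 561 and 535 (0.30, SE 0.19), and another *Tet2* probe set was 148 and 156 against 218 and 327 (0.81, unadjusted p = 0.0297 from limma). *Uhrf2*, a relative of *Uhrf1*, was 803 and 602 against 813 and 832 (0.24, SE 0.19).

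Of the 31 genes of histone acetylation 28 were tested, and *Sirt5* had the largest difference. *Sirt5*, a mitochondrial sirtuin that mainly removes succinyl and related acyl groups from metabolic enzymes, had 676 and 800 in WT and 313 and 396 in G9aΔHep liver, 2.09-fold lower (log2 difference -1.06, SE 0.21, unadjusted p = 0.00217, adjusted p = 0.163 from limma). The groups did not overlap, and the unadjusted p stayed under 0.05 without any 1 array (-1.23 to -0.89). A second detected probe set of *Sirt5* had the same sign but overlapping groups, with 513 and 667 against 280 and 552 (-0.57, SE 0.34). The other sirtuins were nearer to level. *Sirt1*, the nuclear deacetylase, was 715 and 899 against 945 and 1047, above the WT pair (0.31, SE 0.18). *Sirt7*, a nucleolar sirtuin, was 1518 and 1611 against 1338 and 1497, just below it (-0.14, SE 0.14). The intervals of *Sirt2* (-0.42 to 0.28) and the mitochondrial deacetylase *Sirt3* (-0.42 to 0.23) were narrow.

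Zinc-dependent deacetylases did not separate the genotypes, except at low signal. *Hdac1*, *Hdac2* and *Hdac3*, the catalytic subunits of the nuclear corepressor complexes, differed by 0.12, 0.10 and 0.11 with overlapping groups and intervals within 2-fold. *Hdac8* was 71.8 and 113 on WT arrays called Absent and 151 and 147 on G9aΔHep arrays called Present. By the observed signals it was at least 1.61-fold higher in G9aΔHep liver, but the interval, from -0.18 to 1.63, included no difference (adjusted p = 0.574 from limma). *Hdac10* was 152 and 134 against 165 and 198, with 2 of its 4 calls Absent. *Hdac4*, *Hdac5*, *Hdac6*, *Hdac9* and *Hdac11* overlapped.

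Among the 7 acetyltransferases, *Kat6a*, which encodes MOZ, had 208 and 263 in WT and 354 and 393 in G9aΔHep liver (0.67, SE 0.23, adjusted p = 0.427 from limma). Its paralogue *Kat6b* was 447 and 656 against 555 and 497 (-0.04, SE 0.24). The groups were separate for *Kat6a* and overlapped for *Kat6b*. *Kat2b*, the PCAF enzyme, was 7518 and 6754 against 6793 and 6165 (-0.14, interval -0.43 to 0.15), and *Kat7* was 585 and 567 against 614 and 638 (0.12). *Kat2a*, *Kat5* and *Kat8* overlapped. Of the 6 bromodomain readers, *Brd9*, a subunit of SWI/SNF remodelling complexes, was 361 and 439 against 533 and 507 (0.39, SE 0.19, adjusted p = 0.572). *Brd7*, a subunit of a related complex, was 546 and 538 against 617 and 607 (0.17), and *Brd8* was 405 and 377 against 339 and 337 (-0.21). Other detected *Brd8* probe sets gave differences from -1.11 to 0.76, so *Brd8* has no direction that its probe sets share. At the brightest probe set, *Brd7*, *Brd8* and *Brd9* did not overlap between genotypes, whereas *Brd1*, *Brd2* and *Brd3* did. Over all genes tested, 22.3% were higher and 19.3% lower without overlap.

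Grouped by role, 52.3% of writers, 62.5% of erasers and 66.7% of readers had positive differences, beside 53.4% of all genes. Of 44 writers, 23 had positive differences with a median of 0.01, of 32 erasers 20 with a median of 0.11, of 12 readers 8 with a median of 0.14, and of 5 partners 4 with a median of 0.06. After median centring the positive counts were 19 writers, 19 erasers, 8 readers and 2 partners, and the medians -0.05, 0.05, 0.08 and -0.00, beside 44.1% positive and a median of -0.04 over all genes. An unadjusted p under 0.05 was given to 4 writers higher and 2 lower, to 1 eraser in each direction, and to 1 reader and 1 partner higher, beside 5.92% higher and 4.1% lower of all genes.

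Probe sets of 1 gene frequently differed in sign. Of the 93 genes, 49 had at least 2 detected probe sets, and their differences had opposite signs in 27 and 1 sign in 22. Those with opposite signs included *Atf7ip*, *Brd8*, *Cbx6*, *Cbx7*, *Smyd1*, *Dnmt1*, *Kdm5c*, *Kdm6a*, *Kdm7a*, *Kmt2c*, *Kmt2e*, *Nsd3* and *Suz12*. Tested 1 by 1, 16 of the 174 detected probe sets of chromatin genes had an unadjusted limma p under 0.05 (9.2%), beside 9.31% of all 17158 detected probe sets. Of the 16, 12 were higher and 4 lower, beside 5.36% and 3.95% of all detected probe sets, and 0 passed at an adjusted p under 0.05 beside 0.28%. Besides *Dnmt3a*, the probe sets other than the brightest that reached this level were those of *Kdm2a* (0.81), *Nsd3* (1.55) and *Tet2* (0.81). Of the 10 genes listed above, 6 had a single detected probe set, so no second measurement on these arrays bears on them.

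**Figure D4:**
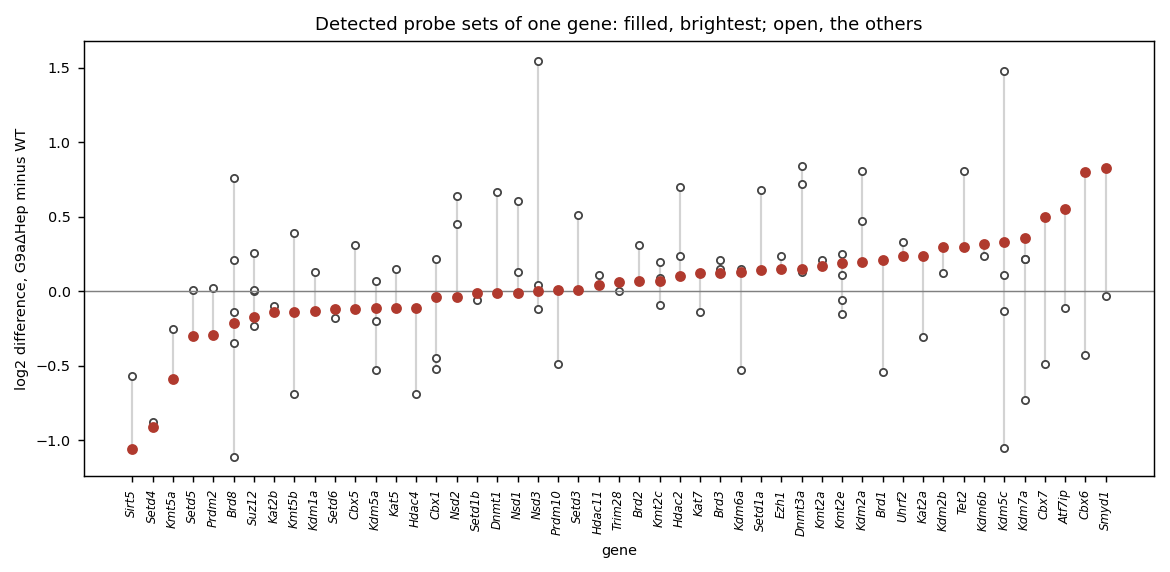
Log2 difference, G9aΔHep minus WT (vertical axis), of every detected probe set of the 49 chromatin genes with at least 2 (horizontal axis, ordered by the brightest probe set); filled points are the brightest probe set, open points the others and grey lines join sets of 1 gene. Where a group was Absent on both arrays, a point has only a bound in that group. Grey lines cross 0 in 27 genes, among them *Cbx6* and *Smyd1* at the right end, and stay below 0 for *Sirt5*, *Setd4* and *Kmt5a* at the left end.

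Leaving out each array in turn puts 1 array in a group, so that the other group alone supplies the spread and the lone array is assumed to vary like it. The sign of the 10 genes could not turn in these fits, because both arrays of 1 genotype lay beyond both of the other for each. The difference ranged from -1.92 to -1.54 for *Ehmt2*, from -1.23 to -0.89 for *Sirt5*, from -1.17 to -0.57 for *Smyd2*, from 0.73 to 1.13 for *Smyd4*, from 0.56 to 1.04 for *Cbx6* and from 0.50 to 0.84 for *Kat6a*. It ranged over smaller or similar spans for *Kmt2d* (0.60 to 0.75), *Kdm5d* (0.40 to 0.54), *Atf7ip* (0.47 to 0.63) and *Smyd1* (0.67 to 0.99). The unadjusted p was under 0.05 in all 4 fits for *Ehmt2*, *Sirt5*, *Kmt2d* and *Smyd2*, and in 0 to 3 for the other 6. When the detected probe sets of a gene were averaged, the differences of *Cbx6* (0.19), *Atf7ip* (0.22) and *Smyd1* (0.40) were no longer under 0.05, whereas *Sirt5* was at -0.82 with an unadjusted limma p of 0.0203.

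Proteins that work with these enzymes but lie outside the symbol rule were described from a list. Of 71 listed partners of the complexes, 57 were tested, 0 passed at an adjusted p under 0.05, 1 was higher and 0 were lower at an unadjusted p under 0.05, and 11 were higher and 12 lower without overlap. Over all genes these shares were 5.92% and 4.1% at that p and 22.3% and 19.3% without overlap. The 1 was *Tasor*, a subunit of the HUSH silencing complex that works with SETDB1, with 936 and 924 in WT and 1467 and 1530 in G9aΔHep liver (0.69, SE 0.14, adjusted p = 0.173 from limma). *Rbbp7*, a histone-binding subunit of Polycomb and deacetylase complexes, was 8148 and 8941 against 9834 and 10731 (0.27, SE 0.11), and *Mta1* of the NuRD complex was 540 and 488 against 728 and 615 (0.38, SE 0.18).

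Of 21 genes that supply the cofactors of these enzymes, 18 were tested, 0 passed at an adjusted p under 0.05, and an unadjusted p under 0.05 was given to 0 on the higher and 1 on the lower side, beside 5.92% and 4.1% of all genes. The 1 was *Nampt*, the rate-limiting enzyme of NAD salvage, on which sirtuins depend, with 2651 and 2765 in WT and 1298 and 1806 in G9aΔHep liver (-0.82, SE 0.19, unadjusted p = 0.00437, adjusted p = 0.227 from limma). *Ahcy*, which clears the product of methyl transfer, was 54304 and 52927 against 48778 and 46006 (-0.18, SE 0.09), and *Mtr*, the methionine synthase, was 77.2 and 83.2 on Absent arrays against 115 and 158 on Present ones.

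Some markers of other cells moved with the genotypes. The hepatocyte markers were Present throughout and summed to 464233 to 470522 in WT and 430601 to 476576 in G9aΔHep liver, which matches the labelled tissue. All 10 macrophage and Kupffer cell markers had positive differences, beside 53.4% of all genes, but only 3 were higher without overlap. Their sums overlapped, at 33454 and 48965 in WT and 71815 and 46007 in G9aΔHep liver. All 7 tested stellate and fibroblast markers also had positive differences, with overlapping sums of 8952 and 13431 in WT and 18073 and 10967 in G9aΔHep liver. The first G9aΔHep mouse was highest in both sums. The stellate sum is mostly *Dcn*, which overlapped, whereas 5 of the 7 tested stellate and fibroblast markers were above both WT arrays on both G9aΔHep arrays, among them *Acta2* at 201 and 232 against 531 and 405 and *Col1a2* at 537 and 580 against 1443 and 659. Over all genes tested, 22.3% were higher without overlap. *Des* was Absent on all 4 arrays. Of the 5 sinusoidal endothelial markers tested, *Lyve1* was 1025 and 1639 against 759 and 550 (unadjusted p = 0.0111, adjusted p = 0.32 from limma), and the other 4 overlapped. Of the 9 proliferation markers on the array, 4 were tested, and *Mki67*, *Ccna2*, *Birc5* and *Mcm5* were Absent on all 4 arrays. Of the 4 tested, 3 had positive differences and *Top2a* a negative difference with overlapping groups (-0.89). *Mcm2* was 88.7 and 82.8 on Absent arrays against 146 and 181 on Present ones. *Cdk1*, Present on the first WT array only and not tested, was 319 and 216 against 154 and 80.3. The proliferation sums were 3885 and 3929 against 4142 and 4708, mostly *Pcna* at 2609 and 2749 against 2798 and 3140. Of the 6 cholangiocyte markers, 2 were tested, *Pkhd1* at 74.8 and 120 against 478 and 286 and *Sox9*, which overlapped, at 173 and 83.9 against 260 and 149. *Krt7*, *Krt19*, *Epcam* and *Cftr* were Absent on both WT arrays and were not tested. The sums, which include these Absent signals, were 484 and 547 in WT and 1310 and 920 in G9aΔHep liver. T and NK cell markers summed to 405 to 761, with *Cd3e* Absent throughout. The ratio of 3′ to 5′ signal was 0.69 to 0.76 for *Gapdh* and 2.03 to 2.54 for *Actb*, highest on the first G9aΔHep array for both. Without that array *Sirt5* was at -0.89, *Kmt2d* at 0.71, *Cbx6* at 0.71 and *Atf7ip* at 0.63. The part of cell makeup and RNA quality in the differences of the chromatin genes was not tested.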

How the data were processed

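Arrays of 2 WT and 2 G9aΔHep livers were grouped by the submitters' labels, which give no batch or pairing. The submitters' processing notes name MAS5, with no version. The authors deposited its signal, a linear intensity corrected for background. The 2% trimmed mean was 500.0 on each array, so signals were used as already scaled. Each probe set also has a deposited detection p-value and call. The number of arrays limits the precision.

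Of 45101 probe sets, 64 controls were left out and 34945 named 1 gene. Each gene was taken at its brightest probe set among those Present on at least 2 arrays, without a pseudocount. Log2 signals were tested with limma 3.58.1 in R 4.3.3 (lmFit, eBayes with a mean-variance trend, 2 residual and 4.02 prior degrees of freedom) and adjusted by Benjamini-Hochberg over 10350 genes at a threshold of 0.05. The fit was tested on simulated data. Where a group was Absent on both arrays, its signals, raised to the array's lowest Present signal (16.0 to 21.1) where below it, gave the fold as a bound, taken from arithmetic or geometric means, whichever gave less. Absent signals reached higher than that signal, and those of *Ehmt2*, *Dnmt3b* and *Hdac8* were all above it. Each bound is thus the ratio of the observed signals and does not cover the spread between mice.

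Named genes were the H3K9 methyltransferases and their partners, genes with an unadjusted p under 0.05, up to 3 with the smallest p in each mark and role, those Absent in 1 group only, and those whose probe sets differ in sign. Further genes were named after their values were seen. Members and lists were chosen with earlier results of these data known. Promoter sequences are from RefSeq (GRCm38.p6), with entries for 93 of the 114 genes. Alternatives covered the trend, scaling, detection filter, probe set choice, a pseudocount of 32, the methods' t-test, the series matrix and leaving out each array.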

Additional observations from a re-analysis of the deposited data

How the results depend on the processing

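Of the 14 alternatives, the count of chromatin genes at an adjusted p under 0.05 stayed at 0 higher in all. It was 1 lower, *Ehmt2*, with arrays centred on their medians (-1.80, adjusted p = 0.0451) and with the mean of detected probe sets (-1.73, adjusted p = 0.05 as rounded, below the threshold), and 0 lower in the others. With *Ehmt2* left out of the test by requiring Present calls on all 4 arrays, 81 chromatin genes were tested. Without each array in turn, with the lone array of a group assumed to vary like the other group, *Ehmt2* ranged from -1.92 to -1.54 and both adjusted counts stayed at 0. The count at an unadjusted p under 0.05 was 7 higher and 3 lower. It was 4 higher after quantile normalization and 11 higher with every detected probe set on its own, and 5 lower without a detection filter. Leaving out single arrays gave 3 to 5 higher (3 without either G9aΔHep array, 4 without the first WT array) and 3 to 6 lower (6 without the first G9aΔHep array). The methods' t-test gave 6 and 2, and 0 after adjustment.

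Of 51 named chromatin genes, 41 kept their sign in every alternative that gave them a value. *Ehmt2*, *Cbx7*, *Dnmt3b*, *Hdac8*, *Hdac10* and *Prdm1* had none when Present calls on all 4 arrays were required. The sign turned for *Ehmt1* with centring (-0.02), which moved the median of all genes from 0.02 to -0.04, for *Smyd1* with Present calls on all 4 arrays, which selects another probe set (-0.03), and with averaged probe sets for *Cbx5* (0.09), *Kdm6a* (-0.08) and *Kat2a* (-0.04). With single arrays left out, signs turned within the ranges of *Cbx1* (-0.18 to 0.10, positive without the first WT or the first G9aΔHep array), *Cbx5* (-0.29 to 0.05, positive without the first G9aΔHep array), *Trim28* (-0.06 to 0.19, negative without the first G9aΔHep array), *Prdm1* (-0.09 to 0.39, negative without the first WT array), *Kdm8* (-0.09 to 0.62) and *Kdm2a* (-0.21 to 0.60), both negative without the second WT array. The cause was not tested. No paired analysis was possible because the labels carry no replicate numbers. Without the trend, 0 of all 10350 genes passed (645 higher and 318 lower at an unadjusted limma p under 0.05), and without the second G9aΔHep array 54 were higher and 17 lower, so the number of calls over all genes rests on the variance model and on single mice. Signals near 170.5 to 181.1, the range Absent probe sets reach, limit *Ehmt2*, *Dnmt3b*, *Hdac8*, *Smyd1*, *Setd4*, *Kdm8*, *Hdac4*, *Hdac9*, *Hdac10*, *Prdm1* and *Prdm16* among others.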
